A study of Mus musculus with 24 samples.

Results

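Gene expression in the mediobasal hypothalamus of sleep-restricted mice was compared between 2 opposed times of day: ZT19 in the middle of the dark phase and ZT7 in the middle of the light phase, where zeitgeber time (ZT) counts hours from lights on. The comparison takes the 6 arrays whose titles carry the sleep-restricted group and these times, 3 at ZT19 and 3 at ZT7, of 24 arrays in the series. All 6 come from mice of the background strain given in the labels as C57BL76J. Timed sleep restriction (TSR) meant that mice were held awake by gentle handling between ZT0 and ZT6 on 5 days, slept freely for 2 days, and were then restricted in the same way for 5 more days. ZT7 therefore falls 1 h after the daily handling by clock time, and ZT19 falls in the active phase of a nocturnal animal. The labels do not give the day of sampling. Control mice (CON) of the same strain were left undisturbed and are used here only to place the TSR values. The series describes 3 mice at each time in each group. Age and sex are not given in the labels. No gene entered the test by its difference between the times, but probe sets and genes were chosen by their mean over the 6 arrays. Among probe sets with a single gene symbol, that with the highest mean stood for each of 19938 genes. The 11852 genes with a mean above an expression threshold of 5.80 log2 units were tested.

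The values are log2 probe-set signals on Affymetrix arrays, so a difference of 1 is a doubling. Differences are ZT19 minus ZT7, given with the moderated standard error of limma (SE, n = 3 at each time), which draws on the spread of other genes. The term "passed" means a limma adjusted p under 0.05 over all genes tested. None of the 6 arrays had a narrow distribution. Their interquartile range was 3.06 to 3.29 log2 units, widest in TSR ZT19 replicate 1, against 2.12 to 2.25 in 4 arrays of other groups. Markers of the labelled region were present: the peptide genes Sst, Tac2, Npy and Cartpt, the dopamine synthesis gene Th and the oestrogen receptor gene Esr1 lay above the threshold. The arcuate satiety peptide gene Pomc (5.33 to 5.80 over the 6 arrays) and the ventromedial factor Nr5a1 (5.40 to 5.66) lay below it and were not tested. The arcuate hunger peptide gene Agrp has no probe set with a single symbol. In whole tissue, fewer cells of a type and less RNA per cell cannot be told apart.

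The mediobasal hypothalamus holds the arcuate nucleus, which senses hormones of hunger and satiety, and borders the third ventricle, whose wall is lined by ciliated ependymal cells and by tanycytes. The suprachiasmatic nucleus, the master clock, and the paraventricular nucleus lie nearby, and the cholinergic cells of the basal forebrain lie in front of it. In each cell a clock turns over when CLOCK and BMAL1 (gene Arntl) bind E-boxes and drive Per, Cry and Nr1d1, whose products then repress them. Sleep loss is known to raise genes of neuronal activity and protein folding in the brain, and cold-inducible RNA-binding proteins follow brain temperature.

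Promoters of 4 genes that the results below return to are shown, since each holds the textbook element of its pathway. They are the 250 bases before the start site, 5′ to 3′ on the gene's strand, from RefSeq (build GRCm38.p6). Capitals mark the element.
Bhlhe41, a clock repressor, chr6:145865421-145865670, minus strand, E-box: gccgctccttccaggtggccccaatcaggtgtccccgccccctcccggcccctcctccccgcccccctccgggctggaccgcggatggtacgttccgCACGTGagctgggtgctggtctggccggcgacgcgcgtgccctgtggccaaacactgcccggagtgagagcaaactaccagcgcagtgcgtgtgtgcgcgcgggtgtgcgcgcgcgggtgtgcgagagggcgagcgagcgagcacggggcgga
Avp, vasopressin, chr2:130582589-130582838, minus strand, E-box: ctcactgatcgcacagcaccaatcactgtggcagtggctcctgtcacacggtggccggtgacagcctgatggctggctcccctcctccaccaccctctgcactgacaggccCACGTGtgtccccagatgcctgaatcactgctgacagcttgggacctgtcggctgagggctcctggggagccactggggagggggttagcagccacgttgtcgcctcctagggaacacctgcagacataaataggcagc
Hspa1a, the inducible heat shock protein, chr17:34972157-34972406, minus strand, heat shock element: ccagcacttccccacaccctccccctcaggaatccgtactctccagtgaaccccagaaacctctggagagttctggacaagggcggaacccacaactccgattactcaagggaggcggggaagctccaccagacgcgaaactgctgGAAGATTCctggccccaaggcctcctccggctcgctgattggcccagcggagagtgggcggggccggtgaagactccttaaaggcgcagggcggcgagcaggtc
Cfap44, a protein of motile cilia, chr16:44394549-44394798, plus strand, X-box: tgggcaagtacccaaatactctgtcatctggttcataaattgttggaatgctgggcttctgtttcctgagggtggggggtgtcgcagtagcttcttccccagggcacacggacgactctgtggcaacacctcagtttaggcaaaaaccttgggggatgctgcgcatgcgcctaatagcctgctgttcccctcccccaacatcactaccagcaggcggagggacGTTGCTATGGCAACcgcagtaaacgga

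The elements were searched on both strands in 300 bases around the start, as CACGTG for the E-box, GAANNTTC for the heat shock element and the consensus of the X-box, the site of the cilium regulators of the RFX family. Of 32851 promoters, 7.15% held the E-box, 7.86% the heat shock element and 1.33% the X-box. Of 22 tested clock and clock output genes with a promoter in the table, 5 held an E-box (Bhlhe41, Ciart, Cry1, Per1 and Tef), 1 held the D-box TTATGTAA (Per3; 0.938% of all promoters), 0 held TTACGTAA (0.119%) and 1 held the cyclic AMP response element TGACGTCA (Hlf; 1.79%). A heat shock element was found in 9 of 17 heat shock genes. An X-box, a motif chosen after the values were seen, was found in 4 of 24 Cfap and Dnah genes. They are Cfap44 and Cfap61, which passed as higher at ZT19, and Cfap20dc and Cfap298, which did not pass. A match is a run of letters and not a bound site.

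Between ZT7 and ZT19, 3042 of 11852 genes passed (25.7%), 2068 higher at ZT19 (17.4%) and 974 lower (8.22%). Most differences were small. Among the genes that passed, the median size was 0.31 log2 units, 323 differed by at least 0.5 (2.73% of genes tested; 230 higher, 93 lower), and 28 differed by at least 1 (21 higher, 7 lower). In 41.8% of genes the 3 values at one time did not overlap those at the other. The smallest p that an exact permutation of 3 against 3 arrays can reach is 0.1. The median difference over all genes was 0.03. The share of higher genes depends on scaling, since 68.0% of the genes that passed were higher as deposited and 52.2% after a further quantile normalization (1659 higher, 1519 lower). The count depends most on how the spread is estimated. With the spread taken from the 20 arrays of ordinary distribution 1953 passed (16.5%; 10.5% higher, 5.99% lower), and with all 24 arrays 28 (0.236%; 0.194% higher, 0.0422% lower). Without TSR ZT7 replicate 1, 2023 passed.

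The largest increases were in a receptor of the master clock and in genes of motile cilia. Vipr2, the receptor for vasoactive intestinal peptide that couples clock neurons, read 6.32, 6.14 and 6.59 at ZT7 and 8.34, 8.28 and 8.35 at ZT19. It rose 3.93-fold, by 1.97 ± 0.10 log2 units (adjusted p = 5.89e-09). The next were Fam216b (1.65 ± 0.11), the ependymal gene Spata18 (1.62 ± 0.10), the adenylate kinase of cilia Ak7 (1.52 ± 0.12) and the axonemal dynein heavy chains Dnah6 (1.43 ± 0.10) and Dnah12 (1.40 ± 0.12). Stoml3 (1.36 ± 0.11), Cfap70 (1.35 ± 0.11), the small G protein gene Rasd1 (1.29 ± 0.10), Cfap43 (1.28 ± 0.11), the potassium channel subunit gene Kcnmb1 (1.21 ± 0.13) and Cfap61 (1.13 ± 0.12) completed the 12 largest. In 9 of these 12 genes the ZT7 mean lay under the threshold. Those 9 entered the test through ZT19 and could only be higher, and the size of the increase is uncertain there.

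The largest decreases were in genes of acetylcholine neurons. Slc18a3, which loads acetylcholine into vesicles, read 8.53, 8.51 and 8.42 at ZT7 and 6.70, 6.86 and 6.96 at ZT19. It fell 3.14-fold, with a difference of -1.65 ± 0.08 (adjusted p = 5.89e-09). The choline transporter gene Slc5a7 (-1.53 ± 0.09), the acetylcholine synthesis gene Chat (-1.47 ± 0.11) and the Y RNA gene Rny1 (-1.15 ± 0.16) followed. The sodium channel subunit gene Scn4b (-1.06 ± 0.12), Sh3rf2 (-1.02 ± 0.13), the vesicle protein gene Slc10a4 (-1.01 ± 0.15), the myelin gene Mog (-0.99 ± 0.08), the cholinergic factor Lhx8 (-0.96 ± 0.10), the neurotrophin receptor gene Ngfr (-0.94 ± 0.09), Prp2 (-0.87 ± 0.13) and the neuronal repressor Scrt1 (-0.85 ± 0.08) completed the 12. The ZT19 means of Chat, Scn4b, Sh3rf2 and Slc10a4 lay under the threshold, so these genes entered the test through ZT7 and could only be lower. In all 24 of these genes the values at the 2 times did not overlap, which was a condition of their selection. Over all genes tested 41.8% did not overlap.

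**Figure D1:**
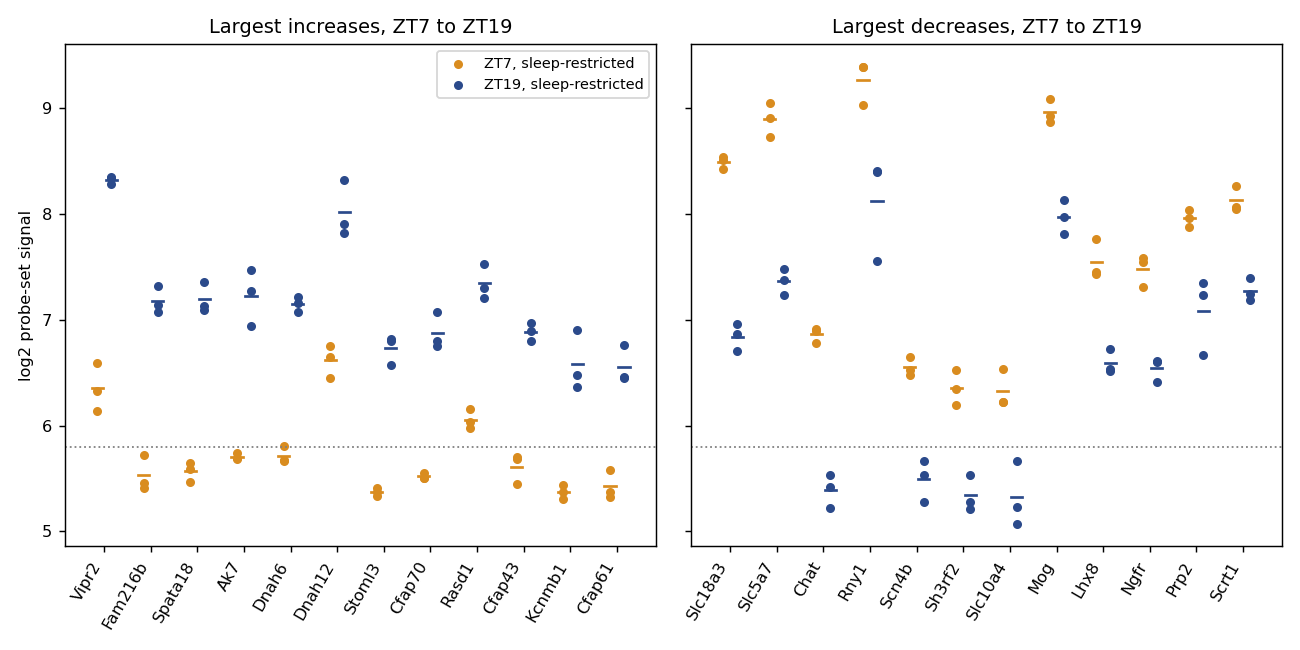
Log2 probe-set signal of the 12 largest increases (left) and the 12 largest decreases (right) among genes that passed, in TSR mice at ZT7 (orange) and ZT19 (blue). Points are arrays, 3 at each time, bars are means, and the dotted line is the expression threshold of 5.80. The ZT7 and ZT19 points of a gene do not overlap by the rule that chose these genes, and 13 of the 24 genes have 1 mean under the threshold.

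Genes of the suprachiasmatic nucleus were mostly higher at ZT19. Of 16 markers 14 were tested, 10 rose and 2 fell, with a median difference of 0.53 against 0.03 over all genes. The mean level of the tested markers was 7.16 to 7.19 in the ZT7 arrays and 7.73 to 7.87 in those of ZT19. The counts were 10 and 2 again in the 20-array fit, and 3 and 0 with all 24 arrays. For 1 of the 10 that rose the ZT7 mean lay under the threshold, so that gene could only be higher. Among receptors, Prokr2, which reads the clock output peptide prokineticin 2, was 7.11, 7.11 and 7.04 at ZT7 and 8.06, 8.25 and 8.10 at ZT19, an increase of 1.05 ± 0.08 (adjusted p = 3.07e-07). The calcium buffer gene Calb1 rose by 0.93 ± 0.09 (adjusted p = 5.13e-06). Syt10, a synaptotagmin enriched in this nucleus, rose by 0.91 ± 0.06, and the developmental factors Six6 and Six3 by 0.92 ± 0.15 and 0.50 ± 0.11.

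The 2 members that fell both encode secreted peptides of this nucleus, but the peptide gene Grp of the same list was among the 10 that rose. The adjusted p of Grp was 0.0103, and 0.0426 in the 20-array fit and 0.0562 without TSR ZT7 replicate 1. The ligand gene Prok2 read 6.24, 6.46 and 6.29 at ZT7 and 6.01, 5.82 and 5.72 at ZT19, a fall with a difference of -0.48 ± 0.11 (adjusted p = 0.00638). Avp, whose promoter is printed above with its E-box, read 9.15, 9.01 and 8.95 at ZT7 and 8.61, 8.51 and 8.64 at ZT19. It differed by -0.45 ± 0.07 (adjusted p = 2.10e-04). Vip and Nms, ligands that define this nucleus, lay below the threshold.

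Markers of the paraventricular and supraoptic nuclei, which make the releasing and pituitary hormones, rose in 4 of 9 tested members and fell in 1, with a median of 0.22. Their mean level was 8.11 to 8.15 at ZT7 and 8.40 to 8.53 at ZT19. Trh, the thyrotropin-releasing hormone, read 9.24, 9.41 and 9.33 at ZT7 and 10.48, 10.34 and 10.41 at ZT19. It rose 2.12-fold, by 1.08 ± 0.06 (adjusted p = 8.92e-09). Sim1, the factor that specifies these neurons, read 7.20, 7.29 and 7.32 at ZT7 and 8.25, 8.17 and 8.32 at ZT19, a difference of 0.97 ± 0.07 (adjusted p = 4.30e-07). The oxytocin gene Oxt rose by 0.43 ± 0.05 (adjusted p = 1.09e-05), while Avp, which these neurons also make, is the member that fell. The glucocorticoid receptor gene Nr3c1 also passed (0.23 ± 0.07, adjusted p = 0.0230), but not in the 20-array fit (adjusted p = 0.0654) or without TSR ZT7 replicate 3 (0.0813) or any of 3 other arrays. Crh, the stress hormone gene of these neurons, lay below the threshold.

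Genes of the wall of the third ventricle came next. Of 16 tanycyte and ependymal markers 11 were tested, 8 rose and 0 fell, with a median of 0.73, and 5 of the 8 passed with all 24 arrays. For 3 of the 8 (Spata18, Stoml3 and Hydin) the ZT7 mean lay under the threshold, so that they entered the test through ZT19 and could only be higher. The mean level of the 11 was 6.36 to 6.46 at ZT7 and 7.06 to 7.18 at ZT19. The members that rose are mostly genes of motile cilia rather than of tanycytes. Spata18 read 5.59, 5.47 and 5.64 at ZT7 and 7.35, 7.13 and 7.09 at ZT19. Dnah12 read 6.75, 6.45 and 6.65 at ZT7 and 8.32, 7.82 and 7.91 at ZT19. Hydin, a protein of the central pair of the axoneme, rose by 1.05 ± 0.10, and Ccdc153 by 0.73 ± 0.08. The intermediate filament gene Vim, shared by both cell types, rose by 0.31. Rarres2, which is not a cilium gene, was also among the 8 that rose (adjusted p = 0.00232, and 3.99e-04 in the 20-array fit). The tanycyte genes Col23a1 (-0.03), Crym (-0.17) and Gpr50 (-0.04) did not pass. Rax and Dio2, which define tanycytes, and Foxj1, which defines ciliated cells, lay below the threshold.

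Whole families of axoneme genes, chosen after their values were seen, are given as a description. All 10 tested Dnah genes, the heavy chains that drive ciliary beating, were higher (0.36 to 1.43), and 5 more lay below the threshold. Of 18 tested Cfap genes 14 were higher and 0 lower, with a median of 0.55, and 13 lay below the threshold. Cfap44, whose X-box is printed above, read 6.72, 6.69 and 6.73 at ZT7 and 7.85, 7.69 and 7.68 at ZT19. Of the other Cfap genes with an X-box, Cfap61 rose by 1.13, and Cfap20dc (-0.08) and Cfap298 (0.08) did not pass. Cfap54 rose by 1.06 ± 0.07. The Ift genes, which carry cargo along every cilium, were higher in 7 of 14 with a median of 0.26, and the Bbs genes, cargo adaptors, in 3 of 7 with a median of 0.23. A member tested only because of its ZT19 level has to be higher there. That holds for 6 of the 10 Dnah genes and 4 of the 14 Cfap genes, whose ZT7 mean lay under the threshold, so the counts do not support a direction for them.

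**Figure D2:**
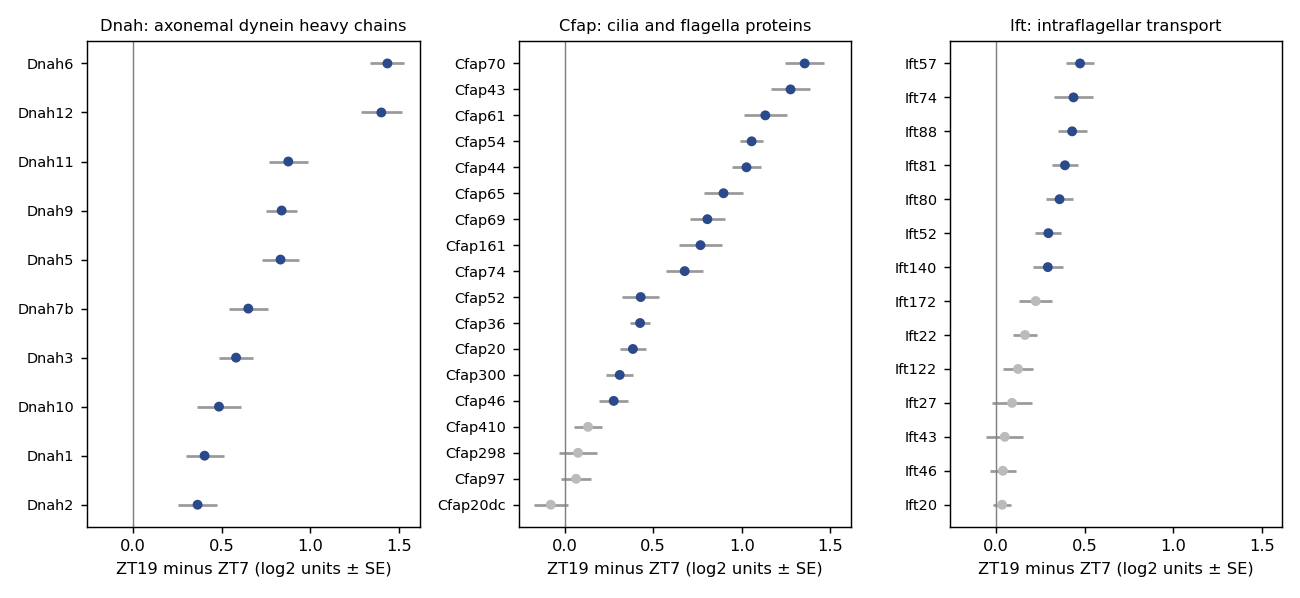
Difference ZT19 minus ZT7 in TSR mice, in log2 units, for each tested axonemal dynein heavy chain gene (left), Cfap gene (middle) and intraflagellar transport gene (right). Points are fitted differences from 3 arrays at each time, bars are SE, blue marks genes that passed and grey those that did not. The Dnah genes lie between 0.36 and 1.43, and the Ift genes between 0.03 and 0.47.

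Forebrain cholinergic markers were lower at ZT19. Of 8 tested members 6 fell and 1 rose, with a median of -0.95, in the 20-array fit as well, and 3 fell with all 24 arrays. The mean level of the 8 was 7.74 to 7.83 at ZT7 and 7.01 to 7.04 at ZT19. Slc5a7 read 9.05, 8.72 and 8.91 at ZT7 and 7.48, 7.23 and 7.38 at ZT19. Chat read 6.89, 6.78 and 6.92 at ZT7 and 5.42, 5.53 and 5.22 at ZT19, a mean under the threshold, so Chat could only be lower. Ache, which breaks acetylcholine down and is made by many other neurons, fell by only 0.25. Zic4 rose by 0.70, and Isl1 did not pass (0.00). Lhx6, a factor of forebrain interneurons, moved with them, from 7.95, 8.07 and 8.08 to 7.23, 7.21 and 7.16 (-0.83 ± 0.07, adjusted p = 1.70e-06), as did the interneuron calcium buffer gene Pvalb (-0.57 ± 0.12).

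Markers of neighbouring regions, which a dissection can include in varying amounts, moved in both directions. Of 16 tested striatal markers 3 fell and 1 rose (4 of 16, a share near the 25.7% of all genes), and the 1 that rose, Tac1 (adjusted p = 0.0403), did not pass in the 20-array fit (0.160) or after quantile normalization (0.0616). The striatal phosphodiesterase gene Pde10a differed by -0.58 ± 0.07. The mean level of these markers was 8.02 to 8.09 at ZT7 and 7.92 to 7.98 at ZT19. Of 17 cortical, hippocampal and thalamic markers 6 rose and 2 fell, and without TSR ZT7 replicate 1 5 passed in all. The vesicular glutamate transporter gene Slc17a7 rose by 0.68 ± 0.11 and the calcium buffer gene Calb2 by 0.65 ± 0.07, and the mean level of these markers was 7.43 to 7.46 at ZT7 and 7.53 to 7.58 at ZT19. GABA neuron and Dlx genes rose in 4 of 11 and fell in 3 (median 0.01, and -0.01 after quantile normalization). Among them Dlx5, a factor of GABA neurons, rose by 0.48 ± 0.07. Posterior hypothalamic markers rose in 2 of 4, Sim1 and Cbln2. The part of the boundaries of the dissected tissue in the suprachiasmatic, paraventricular, ependymal and cholinergic differences was not tested.

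Myelin genes were lower at ZT19. Of 13 tested oligodendrocyte markers 11 fell and 0 rose, with a median of -0.43 (-0.49 after quantile normalization). The 20-array fit gave 11 again, and the fit of all 24 arrays gave 0. The mean level was 8.94 to 9.04 at ZT7 and 8.43 to 8.58 at ZT19. Mog, a protein of the outer myelin surface, read 8.92, 8.87 and 9.09 at ZT7 and 7.81, 8.13 and 7.97 at ZT19. Ermn, a cytoskeletal protein of these cells, differed by -0.80 ± 0.06, the iron carrier gene Trf by -0.71 ± 0.07, the adhesion gene Mag by -0.57 ± 0.07, and the structural genes Mobp and Mbp by -0.54 ± 0.07 and -0.35 ± 0.05. Olig2, a factor of the whole lineage, fell as well (-0.47 ± 0.08), whereas the precursor receptor gene Pdgfra did not pass (0.14). Of 9 tested precursor markers 1 rose and 2 fell (33.3% passed, against 25.7% of all genes).

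MicroRNA genes are measured on the array as hairpin genes and not as mature levels. A set of 82 tested genes with microRNA symbols was chosen after values were seen. It includes the host gene Mir100hg, which is not a hairpin and did not pass. Of the 82, 9 were higher and 15 lower (29.3%, near the 25.7% of all genes), and 2 and 6 in the 20-array fit. RefSeq entries matched 73 of the 82 by symbol. The mature sequences of 4 that passed are shown, with the seed (bases 2 to 8) in capitals, because 1 of them comes from a pair of genes that fell together, 1 belongs to the oligodendrocyte lineage, and the last 2 are from hairpins that rose.
miR-138-5p: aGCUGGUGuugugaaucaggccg
miR-219a-5p: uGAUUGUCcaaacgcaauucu
miR-382-5p: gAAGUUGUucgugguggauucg
miR-690: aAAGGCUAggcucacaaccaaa
Mir138-2 read 7.23, 7.22 and 7.58 at ZT7 and 6.63, 6.62 and 6.71 at ZT19, a difference of -0.69 ± 0.10 (adjusted p = 1.71e-04). Mir138-1, the other gene of miR-138-5p, which is abundant in neurons, differed by -0.32 ± 0.10 (adjusted p = 0.0288, and 0.119 in the 20-array fit), and the call was lost without TSR ZT7 replicate 1 (adjusted p = 0.115) and without any of 3 other arrays.

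Mir219a-1, whose product promotes oligodendrocyte maturation, read 6.56, 6.55 and 6.50 at ZT7 and 6.16, 5.70 and 6.19 at ZT19. It differed by -0.52 ± 0.12 (adjusted p = 0.00674, and 0.0677 in the 20-array fit). Mir219a-2 lay below the threshold, and Mir338 did not pass (-0.18 ± 0.13, adjusted p = 0.323). Mir382, from the imprinted cluster between Meg3 and Mirg, rose by 0.40 ± 0.10 (adjusted p = 0.0119, and 0.0530 in the 20-array fit). Of 24 tested hairpins of that cluster 4 were higher and 1 lower (20.8%, near the 25.7% of all genes), and 0 and 1 in the 20-array fit. Its long noncoding RNA Rian rose by 0.36 ± 0.05 (adjusted p = 9.46e-05). The largest increase was in Mir690 (0.82 ± 0.12, adjusted p = 1.42e-04, and 0.0611 in the 20-array fit).

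Small RNAs made by RNA polymerase III were lower in 5 of 6 tested genes, with a median of -0.37, in the 20-array fit as well. Rny1, a Y RNA that binds the Ro protein, read 9.39, 9.39 and 9.03 at ZT7 and 8.39, 7.56 and 8.40 at ZT19. Rny3 differed by -0.69 ± 0.09, the 5S ribosomal gene n-R5s136 by -0.40 ± 0.08 and Rmrp, which cleaves ribosomal precursor RNA, by -0.34 ± 0.05. Rn7sk did not pass (-0.03). Of 26 tested small nucleolar RNA genes 4 were higher and 3 lower (26.9%, near the 25.7% of all genes).

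Of 18 tested core clock genes 4 passed, all higher (22.2%, near the 25.7% of all genes passed and above the 17.4% higher). Among the activators, Arntl read 7.53, 7.40 and 7.57 at ZT7 and 8.11, 7.95 and 7.83 at ZT19, an increase of 0.46 ± 0.08 (adjusted p = 0.0010). Rorb, which drives Arntl, rose by 0.41 ± 0.08 (adjusted p = 0.00144). Clock rose by 0.18 ± 0.06 (adjusted p = 0.0272), but not in the 20-array fit (adjusted p = 0.151), after quantile normalization (0.0912) or without TSR ZT7 replicate 1 (0.117) or either of 2 other arrays.

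Of 13 tested repressors, 1 passed (7.69%, against 25.7% of all genes). Bhlhe41, whose promoter E-box is printed above, read 7.33, 7.48 and 7.42 at ZT7 and 8.03, 7.86 and 7.73 at ZT19, an increase of 0.47 ± 0.08 (adjusted p = 0.00109). The Period and Cryptochrome genes did not pass: Per1 differed by 0.05 ± 0.08, Per2 by -0.04 ± 0.09, Per3 by 0.09 ± 0.07, Cry1 by 0.08 ± 0.08 and Cry2 by 0.11 ± 0.07. Per2 read 7.05, 6.93 and 7.08 at ZT7 and 7.05, 6.86 and 7.02 at ZT19, so its values overlapped. Nr1d1, which encodes REV-ERB alpha, read 9.98, 9.97 and 9.97 at ZT7 and 9.99, 9.99 and 10.05 at ZT19 (0.04 ± 0.05). Nr1d2 (-0.04 ± 0.06), Ciart (-0.03 ± 0.10), Bhlhe40 (-0.02 ± 0.07), the kinase genes Csnk1d (0.02 ± 0.07) and Csnk1e (0.00 ± 0.06) and the ligase gene Fbxl21 (0.21 ± 0.11) did not pass either. Arntl2 (0.15 ± 0.11) and Rora (0.09 ± 0.07) did not pass.

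Among clock outputs, 2 of 9 rose and 1 fell (33.3% passed, against 25.7% of all genes). Rasd1, which is induced by glucocorticoids and acts on the light response of the clock, read 6.15, 6.03 and 5.98 at ZT7 and 7.53, 7.21 and 7.30 at ZT19. Nampt, the rate-limiting enzyme of NAD salvage, rose by 0.43 ± 0.08 (adjusted p = 0.00104). Dbp, a direct target of CLOCK and BMAL1, fell from 8.43, 8.42 and 8.46 to 8.26, 8.21 and 8.12 (-0.24 ± 0.07, adjusted p = 0.0142). Tef (-0.16 ± 0.07, adjusted p = 0.0951, and 0.0147 after quantile normalization), Hlf (0.07 ± 0.08), Nfil3 (0.00 ± 0.10), Wee1 (0.06 ± 0.07), Klf9 (-0.11 ± 0.08) and Tsc22d3 (-0.15 ± 0.09) did not pass.

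Levels at the other times, in arrays of ordinary distribution, place these values. In TSR mice Nr1d1 averaged 10.13 ± 0.12 at ZT1 (SD, n = 2), 9.97 ± 0.01 at ZT7 (n = 3), 9.74 ± 0.01 at ZT13 (n = 2) and 10.01 ± 0.03 at ZT19 (n = 3). In controls it was 10.03 ± 0.07, 10.78 ± 0.03 and 10.51 ± 0.01 at ZT1, ZT7 and ZT13 (n = 3 each) and 9.96 in the single ZT19 array. Dbp was 8.44 ± 0.02 at ZT7 and 8.20 ± 0.07 at ZT19 in TSR, and 9.24 ± 0.11 and 8.56 in controls. For both genes the ZT7 level was lower in TSR mice than in controls, and the ZT19 levels lay closer together. Vipr2 was 6.35 ± 0.23 at ZT7 in TSR and 7.58 ± 0.17 in controls, and at ZT19 it was 8.32 ± 0.04 and 7.99. Slc18a3 was 8.49 ± 0.06 at ZT7 in TSR and 6.33 ± 0.28 in controls, and at ZT19 6.84 ± 0.13 and 6.15. At ZT1 Slc18a3 was high in both groups, 8.34 ± 0.07 in TSR and 8.09 ± 0.18 in controls. In controls Slc5a7 was 8.40 ± 0.21 at ZT1 and 5.73 ± 0.13 at ZT7, and Chat was 6.46 ± 0.06 and 4.76 ± 0.33. A high level of these genes was therefore not particular to TSR mice. Mog fell along the day in both groups, from 8.96 ± 0.11 at ZT7 to 7.97 ± 0.16 at ZT19 in TSR and from 8.70 ± 0.13 to 7.84 in controls.

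**Figure D3:**
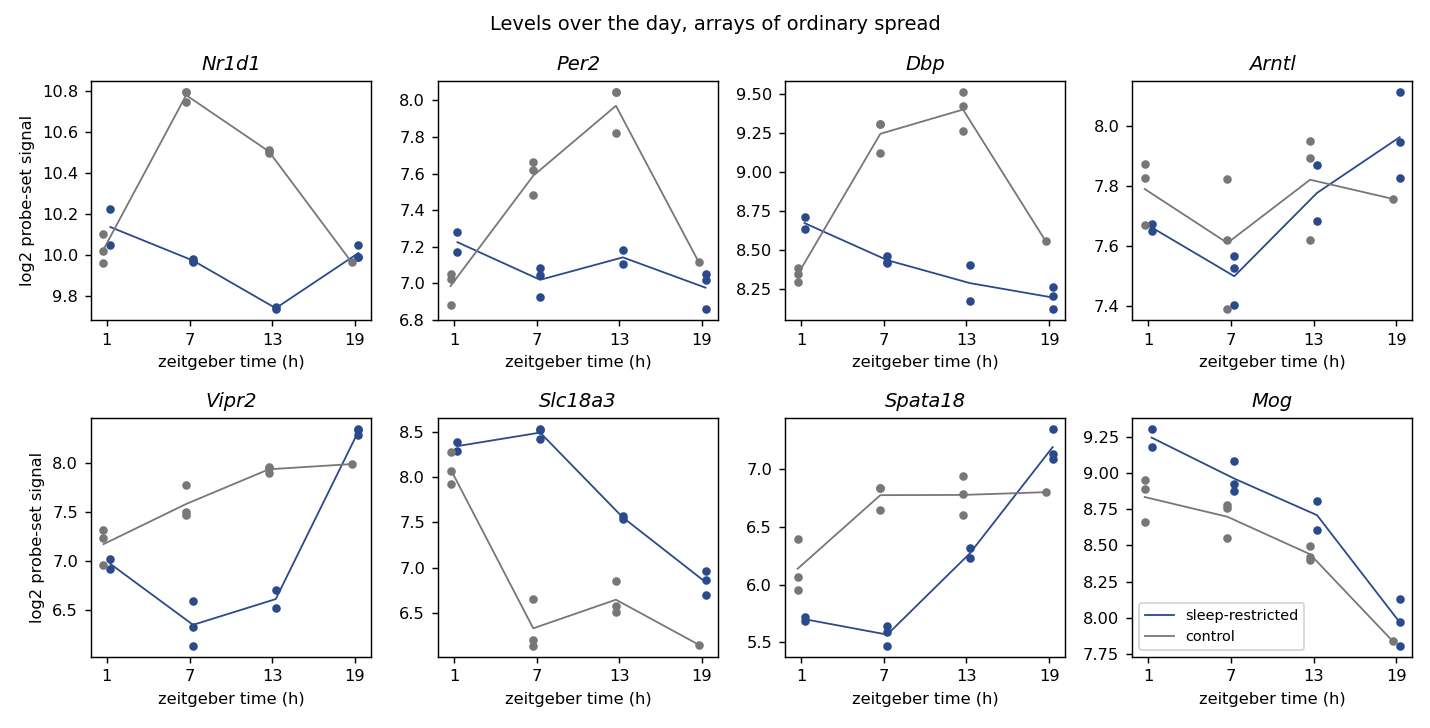
Log2 probe-set signal of 8 genes at ZT1, ZT7, ZT13 and ZT19 in TSR mice (blue) and controls (grey), in the 20 arrays of ordinary distribution. Points are arrays, lines join group means, and controls at ZT19 have 1 array. Nr1d1, Per2 and Dbp sit lower in TSR mice than in controls at ZT7, Vipr2 and Spata18 are lowest in TSR mice at ZT7 and highest at ZT19, and Mog is lowest at ZT19 in both groups.

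The test of whether the ZT19 minus ZT7 difference itself differed between TSR and CON used these 20 arrays, with the lone control array at ZT19 assumed to vary like the others. It called 534 of 11852 genes (4.51%), 405 with a higher difference in TSR (3.42%) and 129 with a lower one (1.09%). With all 24 arrays 39 passed, after quantile normalization 895, and without CON ZT7 replicate 3, 1805. The share with a higher difference in TSR was 75.8%, and 52.5% after quantile normalization. Several Cfap, Dnah and ependymal genes had a higher difference in TSR. In 6 of 10 Dnah genes, 4 of 18 Cfap genes and 3 of 11 tanycyte and ependymal markers the TSR ZT7 mean lay under the threshold. Those genes entered the test through TSR ZT19, so their TSR difference, 1 part of this contrast, could only be positive. Cfap70, 1 of them, differed by 1.35 in TSR and by -0.13 in CON, a difference of 1.48 ± 0.17. Of the 14 suprachiasmatic markers 9 passed, all higher, Vipr2 by 1.57 ± 0.19 (adjusted p = 1.11e-04) and Rasd1 by 0.90 ± 0.17 (adjusted p = 0.00430).

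Cholinergic genes passed in the other direction, 4 lower and 1 higher of 8. The difference of Chat was lower in TSR by 1.58 on the log2 scale (-1.58 ± 0.24, adjusted p = 6.36e-04), that of Slc18a3 by -1.47 ± 0.21 and that of Lhx6 by -1.28 ± 0.12. Among 18 core clock genes 5 passed, all higher: Nr1d1 (0.85 ± 0.09, adjusted p = 3.46e-05), Rora (0.71 ± 0.12), Rorb (0.68 ± 0.14), Fbxl21 (0.98 ± 0.18) and Per1 (0.50 ± 0.14, adjusted p = 0.0466). The Per1 call was lost with all 24 arrays (adjusted p = 0.175) and without TSR ZT7 replicate 1 (0.0898) or any of 7 other arrays. It held without CON ZT7 replicate 3. Of the 13 myelin markers 0 passed in limma, and 1 at an unadjusted p under 0.05. The plasma protein gene Alb gave the smallest p. Its level also moved widely at the other times. At ZT1 and ZT13 it was 9.91 ± 0.37 and 7.11 ± 0.20 in TSR (SD, n = 2 each) and 5.74 ± 0.19 and 6.01 ± 0.11 in controls (n = 3 each). It was 7.65 ± 0.07 at ZT7 and 8.29 ± 0.14 at ZT19 in TSR, and 8.26 ± 0.24 and 4.51 in controls (4.39 ± 0.23, adjusted p = 4.42e-10), and Apoa1 was 6.76 ± 0.23 and 7.29 ± 0.17 in TSR and 7.74 ± 0.07 and 6.01 in controls (2.26 ± 0.25).

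Of 18 tested immediate early genes, which respond to neuronal activity, 5 fell, 0 rose and 13 did not pass, with a median of -0.19 (27.8% passed, against 25.7% of all genes). Egr1, induced by synaptic activity, read 7.03, 7.01 and 7.07 at ZT7 and 6.64, 6.63 and 6.56 at ZT19 (-0.43 ± 0.08, adjusted p = 0.00178). The kinase brake Dusp6 differed by -0.39 ± 0.07, the nuclear receptor gene Nr4a1 by -0.36 ± 0.07, and Dusp4, from the sleep-need list, by -0.46 ± 0.11. Arc (-0.23), Homer1 (0.01) and Npas4 (0.01) did not pass, and Fos lay below the threshold. Of 13 tested sleep-need transcripts 2 rose and 4 fell (46.2% passed, against 25.7% of all genes). Their median was 0.01, and -0.05 after quantile normalization.

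Cold-inducible RNA-binding proteins rose in 3 of 3. Cirbp read 7.99, 8.06 and 8.20 at ZT7 and 8.66, 8.53 and 8.64 at ZT19, an increase of 0.53 ± 0.07 (adjusted p = 1.08e-04). The splicing factor gene Srsf5 rose by 0.29 ± 0.05 and Rbm3 by 0.25 ± 0.06. Heat shock genes mostly did not pass, with 0 of 19 higher and 2 lower (10.5% passed, against 25.7% of all genes). Hspa1a, whose heat shock element is printed above, read 6.29, 5.98 and 5.96 at ZT7 and 5.55, 5.70 and 5.62 at ZT19 (-0.45 ± 0.12, adjusted p = 0.0133). Its call was lost without TSR ZT7 replicate 1 (adjusted p = 0.0898), the array that read 6.29. The ZT19 mean of Hspa1a lay under the threshold, so Hspa1a entered the test through ZT7 and could only be lower.

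Of 24 endoplasmic reticulum genes 2 were higher and 3 lower (20.8%, near the 25.7% of all genes). The counts were 0 and 2 in the 20-array fit and 1 and 5 after quantile normalization, and without TSR ZT7 replicate 1 only 2 passed in all, and 3 without TSR ZT19 replicate 3. Hspa5, the chaperone BiP, a common marker of sleep loss, read 10.81, 10.66 and 10.68 at ZT7 and 10.54, 10.51 and 10.41 at ZT19 (-0.23 ± 0.05, adjusted p = 0.00551). Dnajb9, its co-chaperone, went up by 0.24 ± 0.06 (adjusted p = 0.00820, and 0.112 in the 20-array fit). Of 15 tested glucocorticoid genes 1 rose, Nr3c1, and 1 fell (13.3% passed, against 25.7% of all genes). The metallothionein gene Mt2 differed by -0.29 ± 0.05 (adjusted p = 7.94e-04), whereas Sgk1 (-0.07) and Fkbp5 (0.12) did not pass.

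Appetite peptides and their receptors moved gene by gene. Of 12 tested arcuate peptide genes 4 rose and 2 fell, with a median of -0.08. Sst, somatostatin, read 12.07, 11.97 and 12.04 at ZT7 and 12.54, 12.43 and 12.42 at ZT19, an increase of 0.43 ± 0.04 (adjusted p = 3.85e-06). Nucb2, the precursor of the satiety peptide nesfatin-1, rose by 0.69 ± 0.09 (adjusted p = 7.17e-05). Tac2, neurokinin B of the reproductive neurons, fell from 8.62, 8.80 and 8.77 to 8.41, 8.25 and 8.10 (-0.48 ± 0.08, adjusted p = 6.34e-04). The hunger peptide gene Npy (-0.32 ± 0.12, adjusted p = 0.0646) and Cartpt (-0.03 ± 0.10) did not pass.

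Among 20 tested feeding receptors and their signalling genes 6 rose and 1 fell, with a median of 0.12. The neuropeptide Y receptor gene Npy1r rose by 0.62 ± 0.09 (adjusted p = 2.26e-04), the incretin receptor gene Glp1r by 0.44 ± 0.09, the insulin receptor gene Insr by 0.31 ± 0.06 and the calcitonin receptor gene Calcr by 0.30 ± 0.07. Lepr, the leptin receptor gene, lay below the threshold. In the arcuate and ventromedial list, 2 of 13 rose, the peptide gene Adcyap1 by 0.69 ± 0.09 and the ventromedial factor Fezf1 by 0.58 ± 0.10, and 2 fell (30.8% passed, near the 25.7% of all genes). Arousal genes rose in 1 and fell in 4 of 15 (33.3%, against 25.7% of all genes). The 20-array fit gave 0 and 2, where Gal (adjusted p = 0.0506) and Nts (0.0869) were lost, and 3 passed in all without TSR ZT7 replicate 2, TSR ZT19 replicate 2 or TSR ZT19 replicate 3. The neurokinin receptor gene Tacr3 differed by -0.59 ± 0.10 and the serotonin receptor gene Htr2a by -0.47 ± 0.08. From the sleep-need list, Ptgds, which makes the sleep-promoting prostaglandin D2, read 10.42, 10.40 and 10.40 at ZT7 and 9.87, 9.96 and 10.03 at ZT19 (-0.45 ± 0.05, adjusted p = 2.44e-05). Hcrt, Pmch and Hdc, which define orexin, melanin-concentrating hormone and histamine neurons, lay below the threshold.

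Of 25 tested receptor subunits for GABA and glutamate 12 were higher at ZT19, 2 were lower and 11 did not pass, with a median of 0.15. In the 20-array fit 9 were higher and 2 lower. Gabrg1 rose by 0.59 ± 0.08 (adjusted p = 1.25e-04), Gabrg3 by 0.47 ± 0.06, and Gria2, the AMPA receptor subunit that blocks calcium entry, by 0.46 ± 0.06. Gabre rose by 0.52 ± 0.12.

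Respiratory chain subunits went down in 12 of 28 and up in 2, with a median of -0.13. The 20-array fit gave 8 and 1, and 9 passed in all without TSR ZT7 replicate 1 or TSR ZT19 replicate 2. Cox5a of complex IV differed by -0.36 ± 0.06 (adjusted p = 3.29e-04) and Uqcrc1 of complex III by -0.35 ± 0.05 (adjusted p = 2.44e-04), whereas Uqcrb of the same complex was higher by 0.29 ± 0.06 (adjusted p = 0.00393, and 0.169 in the 20-array fit). Ribosomal protein genes rose in 4 and fell in 3 of 20 (median 0.00, and -0.06 after quantile normalization). The counts were 2 and 2 in the 20-array fit and 3 and 5 after quantile normalization, and 4 passed in all without TSR ZT7 replicate 1 or 3. Of 24 cholesterol synthesis genes 1 passed (4.17%, against 25.7% of all genes), Acly, which makes acetyl-CoA for lipid synthesis. It read 9.75, 9.82 and 9.75 at ZT7 and 9.23, 9.20 and 9.09 at ZT19 (-0.60 ± 0.06, adjusted p = 4.03e-06).

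Other cell types differed in direction. Of 14 neuronal markers 1 rose and 6 fell, led by the neurofilament genes Nefl (-0.69 ± 0.06) and Nefm (-0.65 ± 0.08), while the vesicular glutamate transporter gene of the hypothalamus Slc17a6 rose by 0.21 ± 0.05 and Gad2 did not pass (0.02). Astrocyte markers rose in 4 and fell in 2 of 14 (42.9% passed, against 25.7% of all genes). Their median was 0.04, and -0.02 after quantile normalization, with the glutamate transporter gene Slc1a3 higher by 0.35 ± 0.04. Of 10 microglial markers 2 fell, the complement genes C1qa (-0.36 ± 0.08) and C1qb (-0.39 ± 0.09). Of 12 endothelial and mural markers 2 rose and 5 fell (median -0.27), and 1 of the 5 had a ZT19 mean under the threshold and could only be lower. Plasma protein genes rose in 4 of 7 and fell in 1, and Alb rose by 0.64 ± 0.08. Their mean level was 7.16 to 7.24 at ZT7 and 7.32 to 7.57 at ZT19. Of 13 choroid plexus markers 2 were tested and 1 rose, Ttr (0.31 ± 0.09, adjusted p = 0.0239, and 0.113 in the 20-array fit and 0.0904 without TSR ZT7 replicate 2), while Folr1, Kl and Otx2 lay below the threshold. Of 12 meningeal markers 5 were tested and 0 passed in limma. An unadjusted p under 0.05 was found in 4 of the 5, and in 4545 of all 11852 genes. All 5 were lower at ZT19 with no overlap (median -0.29), against 15.7% of all genes. One pituitary marker, Lhb, was tested and fell (-0.48 ± 0.16, adjusted p = 0.0405, and 0.0704 in the 20-array fit and 0.132 without TSR ZT19 replicate 1). The ZT19 mean of Lhb lay under the threshold, so Lhb entered the test through ZT7 and could only be lower. The blood marker Alas2 did not pass (-0.22 ± 0.12). Xist lay below the threshold, and the Y-linked gene Eif2s3y read 8.14 to 8.68 in all 6 arrays. Of 3 tested Y-linked genes 3 passed as higher at ZT19, Eif2s3y (adjusted p = 0.00126), Uty (0.0198) and Kdm5d (0.0433). In the 20-array fit 1 passed, Eif2s3y (0.0330), and 1 without TSR ZT7 replicate 3 or TSR ZT19 replicate 2. The part of these cell types in the other differences was not tested.

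**Figure D4:**
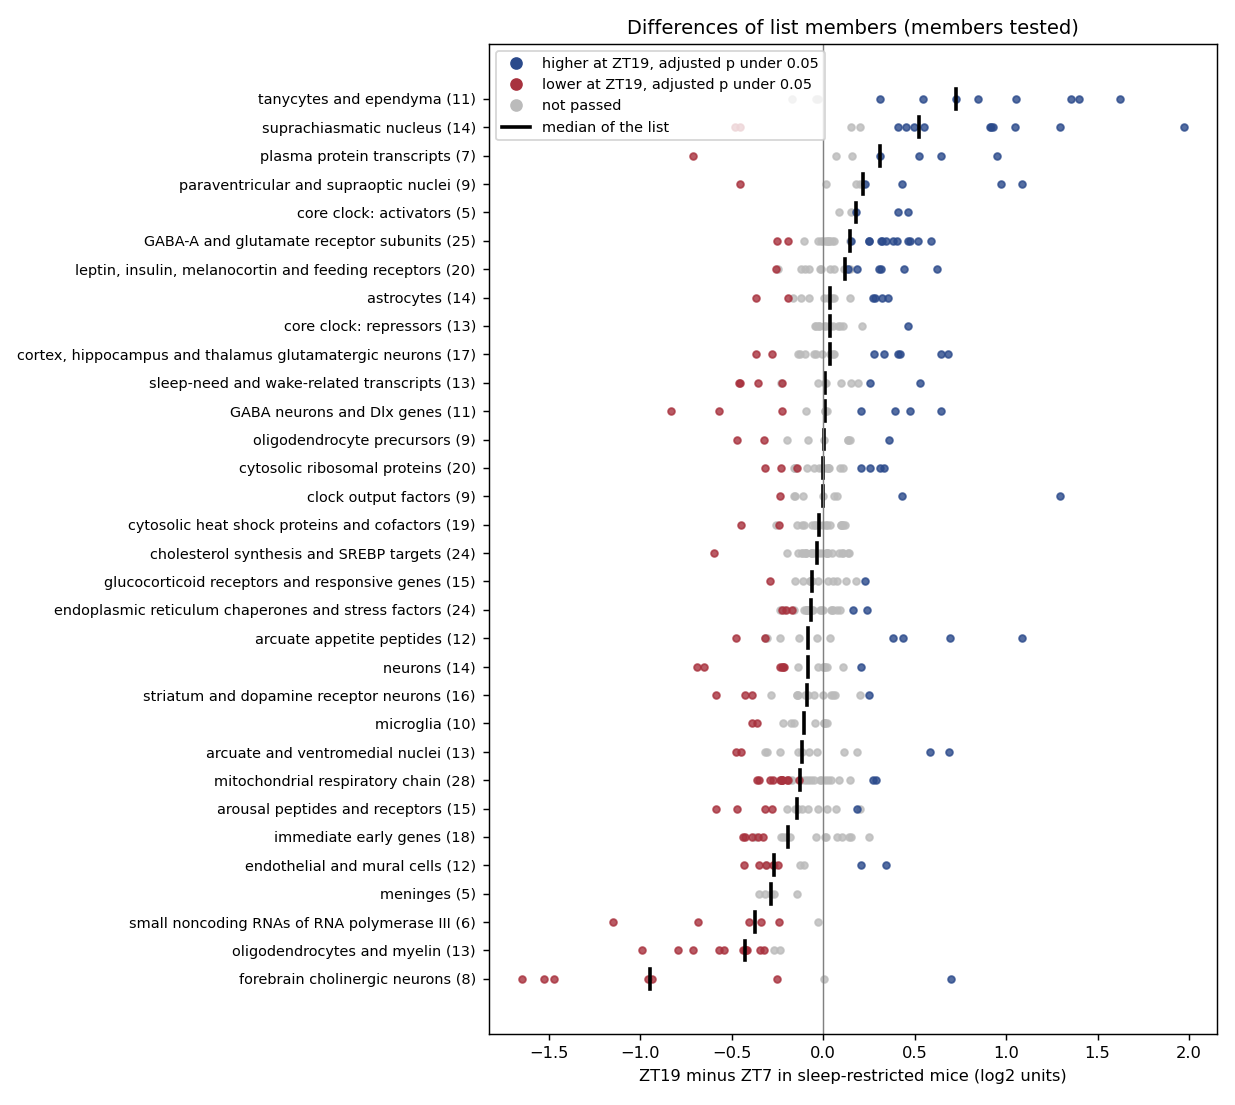
Difference ZT19 minus ZT7 in TSR mice, in log2 units, for the tested members of each list with at least 5 of them (number in brackets). Each point is a gene, blue where it rose, red where it fell and grey where it did not pass, and black bars are list medians. Lists are ordered by median, from forebrain cholinergic neurons (-0.95) to tanycytes and ependyma (0.73).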

How the data were processed

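The deposited values are log2 probe-set signals in 1 table of 35556 probe sets and 24 arrays. Affymetrix Expression Console was used, per the submitters' processing notes, and no source used here gives its version or summarization. RNA was extracted with Trizol and biotin-labelled, per the labels' protocols. Some deposited cells had a misplaced decimal point: 2771 of 853344 were restored by comparison with the other arrays (0.325%), 66 with lost digits were treated as missing, and 9 were empty in the deposited table. In the 6 arrays this touched 181 and 12 cells of probe sets with 1 symbol. Gene symbols came from the platform annotation: 21789 probe sets had 1 symbol, 1621 several and 12146 none. The probe set with the highest mean stood for each gene, and genes under the 40th percentile of the means were left out.

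The test was limma 3.58.1 under R 4.3.3 (lmFit, eBayes with trend), with 2 group means in 6 arrays, Benjamini-Hochberg adjustment and 2-sided tests. Other arrays stayed out because 4 of them (interquartile range under 2.5 log2 units) raise the median residual SD from 0.11 (20 arrays) to 0.36 (24), against 0.09 in the 6. The fit and the restoration were tested on simulated data. The interaction used 8 group means in 20 arrays. The p-values and SE of the main comparison rest on how much these 3 arrays per time vary, and some of that variation may be technical. In both, eBayes drew the spread of each gene toward that of genes of similar level, with 12.0 prior degrees of freedom. The number of arrays limits the precision.

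Genes were named by a rule: the 12 largest changes each way among genes that passed without overlap, all tested clock and clock output genes, and up to 4 members of each list. The rule, lists and members were chosen with earlier results of these data known. List members outside it were chosen after their values were seen, among them Syt10, Six3, Six6, Prok2, Npy, Cartpt, Cfap44, Cfap54, Ccdc153, Mbp, Mobp, Slc17a6, Gad2, Zic4, Isl1, Ache, Rian and the miRNA genes. Alternatives covered scaling, filter, probe sets, moderation, array weights, decimals, the arrays used and each array left out.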

Additional observations from a re-analysis of the deposited data

Results flagged for a closer look

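The difference between ZT19 and ZT7 differed between TSR and CON mice for 534 genes in the 20-array limma fit, and for the named genes below. All values are the TSR difference minus the CON difference in log2 units, with 1 control array at ZT19. The TSR ZT7 means of Fam216b, Ak7, Spata18 and Cfap70 and the TSR ZT19 mean of Chat lay under the threshold. The direction of their TSR difference was therefore fixed by the filter. Alb gave 4.39, Apoa1 2.26, Fam216b 1.74, Ak7 1.64, Spata18 1.60, Vipr2 1.57, Cfap70 1.48, Fbxl21 0.98, Rasd1 0.90, Nr1d1 0.85, Rora 0.71, Rorb 0.68 and Per1 0.50. The cholinergic genes gave -1.58 for Chat, -1.47 for Slc18a3 and -1.26 for Slc5a7, and Lhx6 gave -1.28. With all 24 arrays 8 of these 17 genes passed, namely Alb, Cfap70, Rasd1, Vipr2, Fam216b, Spata18, Ak7 and Chat.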

How the results depend on the processing

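The count of genes that differed between ZT19 and ZT7 in TSR, 3042, became 28 with all 24 arrays, 1953 with the 20 arrays of ordinary distribution, 1460 at an adjusted p under 0.01 and 323 with a size of at least 0.5 log2 units, the last chosen after seeing the data. It ran from 2023 to 3045 with 1 of the 6 arrays left out. Under the other alternatives it stayed within 1.5 times, from 2294 with the decimals as deposited to 3590 with array weights. The count of the interaction, 534, became 39 with all 24 arrays and 895 after quantile normalization, and ran from 296 without TSR ZT19 replicate 1 to 1805 without CON ZT7 replicate 3. It was also over 1.5 times lower without TSR ZT7 replicate 1 (333) or 2 (354) and TSR ZT19 replicate 2 (343). The cause of these shifts was not tested.

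Of 123 named genes that passed, 14 passed with all 24 arrays, 107 with 20, and 111 to 117 with 1 array left out. The direction turned for 1 gene under 1 alternative: Gad1 read 2.98 (adjusted p = 0.355) with the decimals as deposited, where misplaced points are left in. The replicate numbers did not pair the arrays: the correlations of same-numbered deviations were -0.09, -0.01 and -0.05, and 0 of 6 arrays correlated best with their own number. With the replicate block 2825 genes passed in the main comparison and 363 in the interaction. Signal near the threshold of 5.80 limits the size of differences for genes with a group mean under it, and the filter fixed their direction.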
